A study of Homo sapiens with 4 samples.

Results

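The 10 genes described here read out the epithelial or mesenchymal state of a cell and were taken by symbol from a table of gene counts. They are the cadherins CDH1 and CDH2, vimentin (VIM), fibronectin (FN1) and the transcription factors SNAI1, SNAI2, ZEB1, ZEB2, TWIST1 and TWIST2. Of the 10, 8 have a row among the 12912 genes of the table, and TWIST1 and TWIST2 do not and were not analysed here. The libraries are from 786-O, an established clear cell renal carcinoma line without functional VHL, the substrate receptor of a ubiquitin ligase that marks HIF-α proteins for destruction. The control subline, 786-O-Ctrl (labelled wild type, VHL-null), was compared with 786-O-VHL, in which a retroviral vector expresses HA-tagged VHL. Both sublines also carry a retroviral triple reporter (GFP, luciferase and thymidine kinase), both were grown in RPMI1640 with serum, and total RNA was sequenced from 2 libraries of each. They are called control and VHL libraries in what follows.

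In an epithelium, E-cadherin, the product of CDH1, joins neighboring cells through its extracellular repeats and holds β-catenin at its tail. Cells that turn mesenchymal typically replace it with N-cadherin (CDH2), build vimentin filaments and secrete fibronectin into the matrix. SNAIL (SNAI1), SLUG (SNAI2), ZEB1 and ZEB2 are zinc finger repressors that bind E-box letters in target promoters, CDH1 among them, and TWIST proteins act with them. Renal tubule cells differ from most epithelia in that proximal tubules normally carry N-cadherin and cadherin-6.

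The control libraries had 22141263 and 15714166 counts and are named by depth, since the table gives both the same number. The VHL libraries had 2807779 (replicate 1) and 16114120 counts (replicate 2). Levels are given in CPM, read counts relative to the library total as scaled by edgeR's TMM factors, and 3 counts, the limit that a count of 0 allows, correspond to between 0.142 and 1.02 CPM in a library. Intervals and limits on counts cover counting error only. VHL mRNA was 42.9 and 43.9 CPM in the control and 178 and 163 CPM with VHL, in the order of the labels. Of 12 renal tubule markers 10 have a row and 9 were tested. At an edgeR FDR under 0.05, 1 was higher, 4 were lower and 4 did not pass. Of all genes tested, 32.6% were higher and 31.9% lower. PAX8 and PAX2 had at least 490 and 103 counts in every library, while the brush border peptidase MME went from 34.9 to 1.68 CPM on average. No leukocyte marker has a row, and the endothelial markers PECAM1, KDR and TEK had at most 13 counts in a library. Of 7 fibroblast and mural markers, PDGFRB, LUM and RGS5 have rows, and their summed level was between 8.79 and 9.17 CPM in the control and between 14.7 and 15.9 CPM with VHL. The part of such cells in the results was not tested.

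The genes did not move as a block toward either state. At an edgeR FDR under 0.05, CDH1, SNAI2, FN1 and ZEB1 were higher with VHL, VIM and SNAI1 were lower, and CDH2 and ZEB2 did not pass. These are 4 higher and 2 lower of 8 tested, beside 32.6% higher and 31.9% lower among all 12335 genes tested. With the further requirement of more than 4-fold at an FDR under 0.01, only CDH1 passed of the 8, where 2.92% of all tested genes were higher and 1.54% lower. CDH1 entered the test through its VHL libraries alone, so its call lends no support to either count. The replicates may be technical, so the p-values measure the spread between these libraries, and an exact permutation test of 2 against 2 cannot go below p = 0.333.

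**Figure D1:**
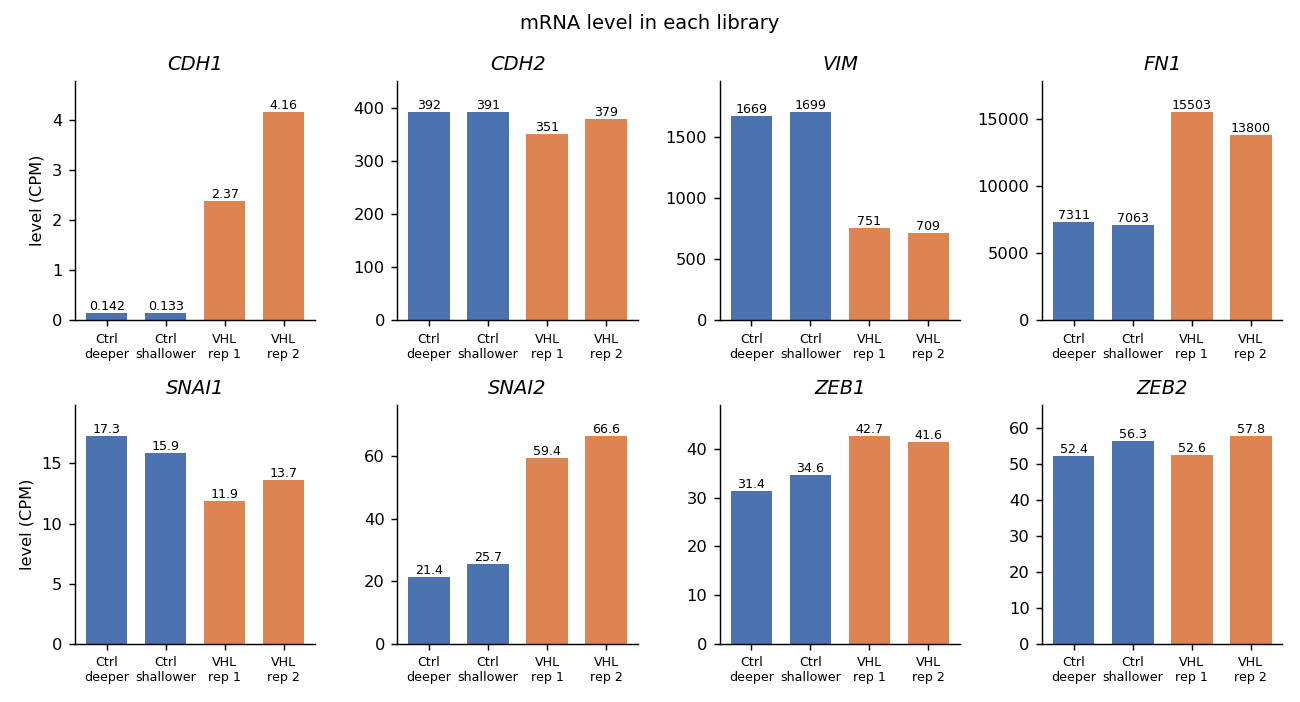
Level in CPM (y axis, from 0, separate for each gene) of the 8 genes in the 4 libraries (x axis; blue 786-O-Ctrl, orange 786-O-VHL). CDH1, SNAI2 and FN1 stand higher in each library with VHL and VIM lower, while CDH2 and ZEB2 are near level.

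CDH1 (ENSG00000039068.19) lies on the plus strand of chromosome 16 of GRCh37 from 68771195 to 68869440. It had 3 and 2 counts in the control libraries, and 7 and 70 counts in VHL replicates 1 and 2. These are 0.142 and 0.133 CPM against 2.37 and 4.16 CPM, so E-cadherin mRNA was at the limit of detection in the control and low but counted in both libraries with VHL. The exact 95% Poisson interval was 0.955 to 4.89 CPM in VHL replicate 1 and 3.24 to 5.25 CPM in replicate 2, and these intervals overlap. Over the libraries of each group together, 5 counts stood against 77, a ratio of 28.1 with an exact 95% interval of 11.5 to 89.0. The edgeR log2 fold change was 4.67 ± 0.527 (SE, edgeR FDR = 9.84e-09), and 30 of the tested genes had a larger one. CDH1 reached the minimum of the filter on low counts in both libraries of the VHL group only. So did CDH15, KLF8, TJP3, ERBB3 and ITGA4 of the lists described after it, while CTNNA3 and NES did so in the control group only. KLF8 and NES also reached it in 1 library of the other group. Genes that enter this way were selected toward a difference, and these calls lend no support to the count of a list. CDH1 was not tested when 10 counts were required in every library or when all libraries were thinned to the shallowest. With a prior count of 2 its log2 fold change was 3.79. In a bulk library, a few cells with much CDH1 mRNA and many cells with little cannot be told apart.

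The 3 genes with at least 10 CPM on average whose profile over the 4 libraries lay nearest to that of CDH1 were SYTL1, BTC and ITGA11. Their Euclidean distances on centred log2 CPM were 0.496, 0.579 and 0.618, over 9235 genes searched. SYTL1 rose from 1.61 and 1.60 CPM to 32.6 and 35.6 CPM. BTC encodes betacellulin, a ligand of the EGF receptor family, and ITGA11 a collagen-binding integrin chain usual in fibroblasts. With 4 libraries in 2 groups, such likeness describes little more than a similar fold change.

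CDH2 (ENSG00000170558.9; chromosome 18 of GRCh37, 25512843 to 25757910, minus strand) was abundant in all libraries. Its level was 392 and 391 CPM in the control and 351 and 379 CPM with VHL. The groups did not overlap, but the log2 fold change was only -0.09 ± 0.0622 (SE, edgeR FDR = 0.194), with a 95% interval of -0.22 to 0.03. A fall of more than 0.22 or a rise of more than 0.03 on the log2 scale therefore lies outside the interval. Without VHL replicate 2 the log2 fold change was -0.17 (edgeR FDR = 0.0173), and by library totals alone it was 0.04.

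While CDH1 rose, no change of N-cadherin mRNA was called. The ratio of CDH2 to CDH1 counts, which does not depend on library scaling, was 2358 and 2356 in the control libraries, 138 in VHL replicate 1 and 90.5 in replicate 2 (0.5 added to each count). On the log2 scale the mean ratio was 11.20 ± 0.000964 (SD, n = 2) and 6.80 ± 0.431 (SD, n = 2), a difference of -4.40. The near equality of the control ratios rests on 3 and 2 CDH1 counts. Even with VHL, CDH2 remained the far more abundant transcript, at 42.5 CPM per kb of exon against 0.537 for CDH1.

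Other cadherins moved upward where they moved. Of 21 further cadherin genes, 8 have a row and were tested, of which 5 were higher, 0 were lower and 3 did not pass at an edgeR FDR under 0.05. Among all genes tested, 32.6% were higher and 31.9% lower. CDH15, among the 5, entered the test through the VHL libraries alone and lends no support to this count. DESeq2 and limma-voom also called 0 lower, and since all 8 edgeR log2 fold changes were above 0, 0 were lower at an unadjusted p under 0.05. Their median was 0.87, against 0.02 over all genes tested. CDH16, the kidney-specific cadherin of tubule cells, had 146 and 131 counts in the control and 88 and 416 with VHL, a rise from 7.82 ± 1.25 to 27.3 ± 3.64 CPM (SD over 2 libraries each). Its log2 fold change was 1.75 ± 0.152 (SE, edgeR FDR = 5.09e-11). CDH17, known from intestinal epithelium, rose by 2.18 on the log2 scale from 17 and 11 counts to 7 and 65, with an edgeR FDR of 1.4e-05 that became 0.0984 without VHL replicate 2. CDH15, the cadherin of muscle, had 8 counts over the control libraries and 25 over those with VHL, a ratio of 5.70 (exact 95% interval 2.49 to 14.6). CDH6, cadherin-6, and CDH11, which is typical of mesenchymal cells, were also higher, with log2 fold changes of 0.45 and 1.29 (edgeR FDR = 0.000144 and 8.07e-10). The VHL replicates 1 and 2 were apart for both. CDH6 had 219 and 215 CPM in the control and 366 and 251 CPM with VHL. CDH11 had 19.7 and 22.1 CPM in the control and 67.8 and 44.5 CPM with VHL.

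Per kb of exon, the order of the cadherins in the control was CDH2, CDH6, CDH13, CDH24, CDH16, CDH11, CDH4, CDH17, CDH15 and CDH1. The level fell along it from 45.6 to 0.0227 CPM per kb. With VHL, CDH1 stood at 0.537 CPM per kb, above CDH15 at 0.310 and below CDH17 at 0.804. Neighbours in this order did not overlap in the control libraries. In the deeper control library, though, CDH15 and CDH1 had 3 counts each and differed only by exon length. In the shallower they had 5 and 2 counts, too few to settle their order. In the VHL libraries CDH24 overlapped CDH16, CDH17 overlapped CDH4, and CDH1, at 0.391 and 0.684 CPM per kb, overlapped CDH17, so that these were not distinct beyond their spread. Exon length was merged over all annotated transcripts, which lowers the value of genes with many or long isoforms.

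**Figure D2:**
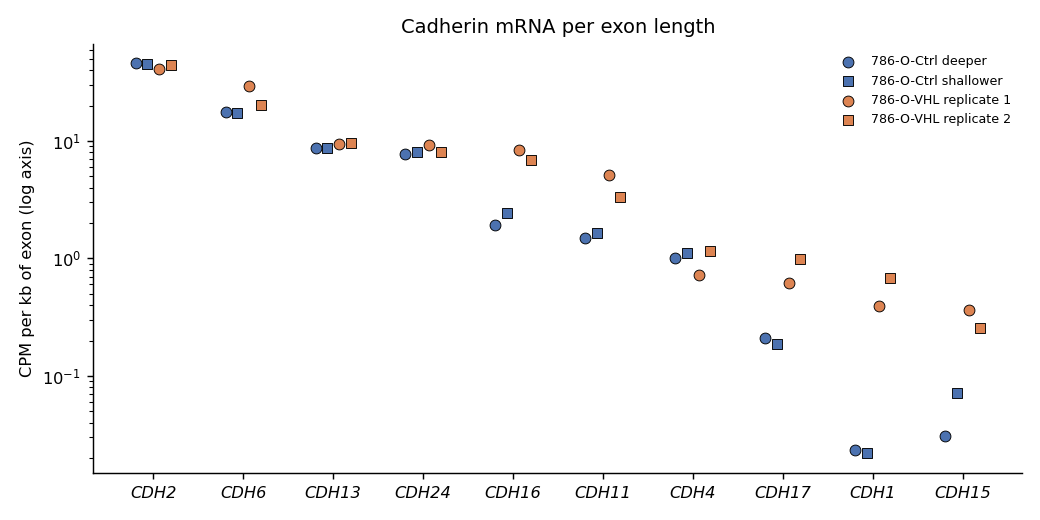
CPM per kb of exon (y axis, log scale) of the 10 tested cadherins in each library (blue 786-O-Ctrl, orange 786-O-VHL), ordered by the level in 786-O-VHL. CDH2 is highest in all libraries, and CDH1 rises from 0.0227 to 0.537 CPM per kb on average.

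Of 15 tested catenins, nectins and other genes of the cadherin complex, 5 were higher, 6 were lower and 4 did not pass, at a median log2 change of 0.01. These counts lie near the 32.6% higher and 31.9% lower of all genes. CTNNA3, among the 6 lower, entered the test through the control libraries alone and lends no support to this count. Plakoglobin (JUP), a catenin shared by adherens junctions and desmosomes, rose from 7.17 ± 1.68 to 12.6 ± 0.423 CPM (SD over 2 libraries each), or 0.77 on the log2 scale, with an edgeR FDR of 0.000681. LIMA1, which links the complex to actin, rose by 0.83, and the immunoglobulin-like adhesion protein NECTIN3 by 0.35. Vinculin (VCL) fell by 0.66 and NECTIN1 by 0.59 on the log2 scale. CTNNA3, an α-catenin known from heart muscle, had 71 counts over the control libraries and 4 over those with VHL, and was 9.73-fold lower (exact 95% interval 3.64 to 36.7). β-catenin (CTNNB1) and α-catenin (CTNNA1) had log2 fold changes of -0.15 and -0.44 with edgeR FDR values of 0.0317 and 3.65e-07, and p120-catenin (CTNND1) had one of 0.05 (edgeR FDR = 0.46).

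VIM and FN1, both classed as mesenchymal, moved in opposite directions. VIM (ENSG00000026025.16) lies on the plus strand of chromosome 10 of GRCh37 from 17270240 to 17279592. It stood at 1669 and 1699 CPM in the control and at 751 and 709 CPM with VHL. Vimentin mRNA was thus 2.31-fold lower, with a log2 fold change of -1.21 ± 0.0605 (SE, edgeR FDR = 3.66e-16). Its rank among the 12912 genes went from 40 and 39 to 140 and 160. Over 12 alternative settings its log2 fold change stayed between -1.25 and -1.08.

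FN1 (ENSG00000115414.19) is read from the minus strand of chromosome 2 (GRCh37, 216225163 to 216300796). It had 7311 and 7063 CPM in the control and 15503 and 13800 CPM with VHL, a 2.04-fold rise with a log2 fold change of 1.03 ± 0.0618 (SE, edgeR FDR = 2.32e-14). Fibronectin was the third and the fourth most counted gene in the control libraries and the most counted of all in both VHL libraries, where it took 1.63% and 1.44% of the counts. In the control it took 0.695% and 0.676%. FN1 counts were 4.38 and 4.16 times those of VIM in the control and 20.6 and 19.5 times with VHL.

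**Figure D3:**
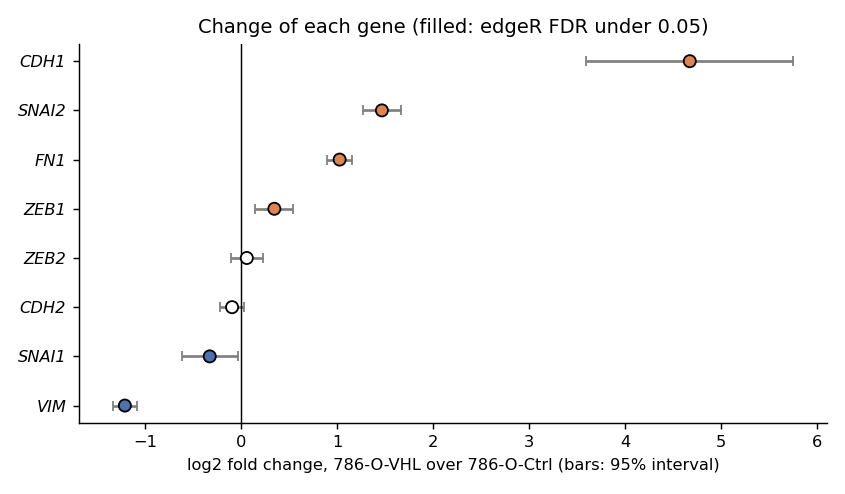
Log2 fold change of 786-O-VHL over 786-O-Ctrl (x axis) with its 95% interval for the 8 genes, where filled points passed an edgeR FDR under 0.05. The interval of CDH1 is the widest and those of CDH2 and ZEB2 hold 0.

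The starts of VIM, FN1 and ZEB1 are shown to let the letters be read that E-box repressors and HIF recognise. They come from RefSeq (GRCh38.p14, a later build than that of the gene positions given here), whose table holds windows for 6 of the 10 genes. Each line runs 5′ to 3′ on the strand of the gene, from 100 bases before the start to 20 after it. Capitals mark CAGGTG, the E-box read by SNAIL and ZEB proteins, or CACGT, the reverse complement of the HIF core ACGTG. For ZEB1 the window with most such E-boxes was taken of 7, and 1 of its 3 falls in the stretch shown. They lie at chr10:17228141-17228260 (VIM, plus), chr2:215436049-215436168 (FN1, minus) and chr10:31319116-31319235 (ZEB1, plus).
VIM: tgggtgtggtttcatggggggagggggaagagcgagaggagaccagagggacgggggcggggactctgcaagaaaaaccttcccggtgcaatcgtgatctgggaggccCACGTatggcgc
FN1: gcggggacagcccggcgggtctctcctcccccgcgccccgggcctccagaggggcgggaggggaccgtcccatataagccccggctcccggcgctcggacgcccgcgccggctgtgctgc
ZEB1: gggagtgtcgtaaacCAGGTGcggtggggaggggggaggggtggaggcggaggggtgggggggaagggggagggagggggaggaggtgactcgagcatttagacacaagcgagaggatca

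In windows of 300 bases, from 250 before to 50 after a start, CACCTG or CAGGTG (reverse complements of each other, so that both strands are covered) was found in 20.6% of 35116 RefSeq promoters, and ACGTG or CACGT in 21.4%. The looser E-box CANNTG, which includes the former, was found in 68.7%. Of the 13 windows of VIM, FN1, CDH2, ZEB1, ZEB2 and TWIST2, 2 held CACCTG or CAGGTG, both of them ZEB1 windows, and 3 held ACGTG or CACGT, 1 each of VIM, ZEB1 and ZEB2. Neither motif lay in the FN1 window. A match is a description of letters and not of binding.

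Intermediate filament genes other than VIM and the keratins, listed with the filament linker plectin (PLEC), also stood mostly lower. The keratins are given with the epithelial genes. Of 8 tested, 7 were lower and 1 was higher, at a median log2 change of -1.09, where 31.9% of all genes were lower and 32.6% higher. NES, among the 7, entered the test through the control group and lends no support to this count. Nestin (NES), known from progenitor cells, went from 95 and 53 counts to 2 and 5, and was 11.6-fold lower over the pooled libraries (exact 95% interval 5.49 to 29.3). The nuclear lamins LMNB1 and LMNB2 fell by 1.69 and 1.58 on the log2 scale, and the neurofilament chain NEFL by 1.33. GFAP, the filament of astrocytes, was the exception, with 18 and 14 counts in the control and 9 and 67 with VHL.

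Fibronectin receptors and matrix partners went both ways. Of 13 tested, 6 were higher, 6 were lower and 1 did not pass, at a median log2 change of -0.08, where 32.6% of all genes were higher and 31.9% lower. ITGA4, among the 6 higher, entered the test through the VHL libraries alone and lends no support to this count. ITGA5, the α chain of the classical fibronectin receptor, fell from 376 ± 2.56 to 187 ± 4.83 CPM (SD over 2 libraries each), or -1.02 on the log2 scale, with an edgeR FDR of 5.56e-14. Its partner ITGB1 had a log2 fold change of -0.08 (edgeR FDR = 0.214). ITGB5 and the crosslinking enzyme TGM2 fell by 0.88 and 1.02 on the log2 scale. Other integrin chains were higher. ITGAV and ITGB3, which pair in a further fibronectin receptor, rose by 0.34 and 0.24, and ITGA3 by 0.30. ITGB6, whose integrin is restricted to epithelia, rose by 0.90, though with an edgeR FDR of 0.0683 and a log2 fold change of 0.61 without VHL replicate 2. ITGA4 went from 8 and 6 counts to 4 and 18, and its call was lost with DESeq2 (adjusted p = 0.179). The adaptor TNS3, which binds integrin tails, rose by 0.52.

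SNAI1 and SNAI2, which encode close relatives, stood apart. SNAI2 (ENSG00000019549.13; chromosome 8 of GRCh37, 49830157 to 49834299, minus strand) had 451 and 386 counts in the control and 175 and 1121 with VHL. Its level of 21.4 and 25.7 CPM became 59.4 and 66.6 CPM. SLUG mRNA was therefore 2.77-fold higher, with a log2 fold change of 1.47 ± 0.0980 (SE, edgeR FDR = 2.2e-13), and stayed between 1.32 and 1.60 over 12 alternative settings.

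SNAI1 (ENSG00000124216.4; chromosome 20, 48599517 to 48605423, plus strand) had 17.3 and 15.9 CPM in the control and 11.9 and 13.7 CPM with VHL. Both libraries with VHL were lower, at a log2 fold change of -0.33 ± 0.143 (SE, edgeR FDR = 0.0475). This call is at the edge. It was lost with DESeq2 (adjusted p = 0.204), by library totals alone, after thinning, and without any 1 of the 4 libraries, where the edgeR FDR was between 0.0731 and 0.303. The exact 95% Poisson interval of VHL replicate 1, which had 35 SNAI1 counts, was 8.27 to 16.5 CPM and reached into the levels of the control.

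The ratio of SNAI2 to SNAI1 counts was 1.24 and 1.61 in the control libraries and 4.94 and 4.87 in the VHL libraries. Per kb of exon the order of both genes changed. SNAI1 stood above SNAI2 in the control, at 9.73 against 7.17 CPM per kb, and below it with VHL, at 7.49 against 19.2. In neither group did the libraries of both genes overlap on this scale. The order in the control depends on the merged exon lengths, 1.71 kb for SNAI1 and 3.28 kb for SNAI2. In plain counts SNAI2 was above SNAI1 in every library.

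**Figure D4:**
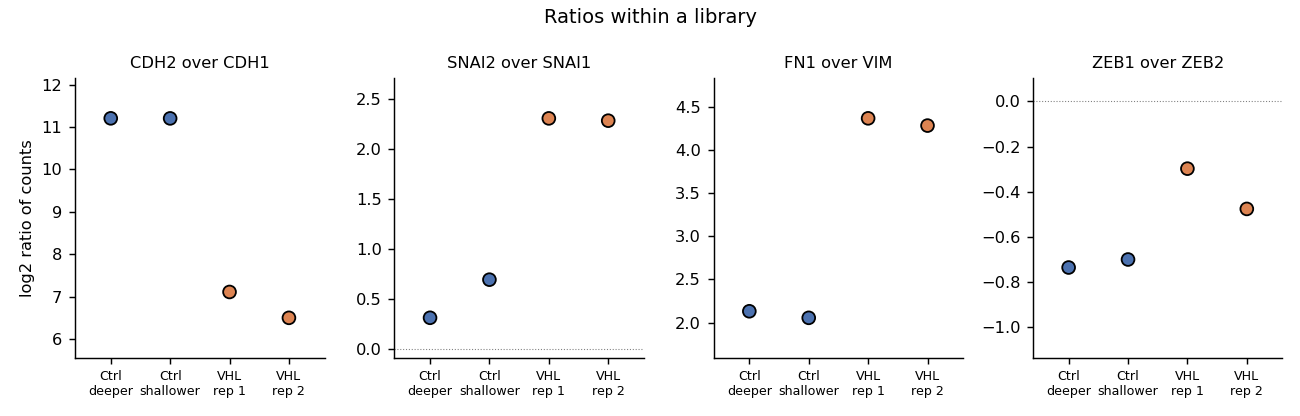
Log2 ratio of counts within each library (y axis, separate for each pair; blue 786-O-Ctrl, orange 786-O-VHL) for CDH2 over CDH1, SNAI2 over SNAI1, FN1 over VIM and ZEB1 over ZEB2. The groups are apart in all 4 panels, by the most for CDH2 over CDH1, where the mean log2 ratio goes from 11.20 to 6.80.

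ZEB1 (ENSG00000148516.21; chromosome 10, 31607424 to 31818742, plus strand) was slightly higher with VHL. It had 31.4 and 34.6 CPM in the control and 42.7 and 41.6 CPM with VHL, a log2 fold change of 0.35 ± 0.0962 (SE, edgeR FDR = 0.0025). The call was lost with DESeq2 (adjusted p = 0.0683) and without the deeper control library (edgeR FDR = 0.102). ZEB2 (ENSG00000169554.21; chromosome 2, 145121931 to 145278624, minus strand) had 52.4 and 56.3 CPM in the control and 52.6 and 57.8 CPM with VHL, and the groups overlapped. By library totals alone its call changed (log2 fold change 0.19, edgeR FDR = 0.0372). With TMM its log2 fold change was 0.06 ± 0.0807 (SE, edgeR FDR = 0.528), with a 95% interval of -0.11 to 0.23. Annotated genes overlap CDH1, CDH2, ZEB1 and ZEB2 on both strands, and VIM and SNAI2 on the opposite strand, among them VIM-AS1 and ZEB1-AS1. Whether the counting used strand is not given, so reads of such partners cannot be told apart, and VIM-AS1, ZEB1-AS1 and ZEB2-AS1 have no row.

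Per kb of exon, the genes kept the order FN1, VIM and CDH2 at the top and ZEB1, ZEB2 and CDH1 at the bottom in both groups. The values with VHL were 851, 141 and 42.5 CPM per kb at the top and 4.87, 2.11 and 0.537 at the bottom. ZEB2 has 26.2 kb of merged exon, the longest of the 8, and SNAI1 has 1.71 kb, the shortest.

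Among other transcription factors that hold the epithelial state, 5 of 14 have a row, of which 2 were higher and 3 did not pass, at a median log2 change of 0.17. KLF4, a differentiation factor of epithelia, rose from 23.5 ± 1.62 to 132 ± 3.40 CPM (SD over 2 libraries each), or 2.51 ± 0.0772 on the log2 scale (SE, edgeR FDR = 1.07e-20). ELF3, an epithelial ETS factor, rose by 1.23 on the log2 scale. GRHL1, ESRP2 and KLF5 had log2 fold changes of 0.17, -0.24 and -0.23 that did not pass, and GRHL2, OVOL1, OVOL2 and ESRP1 have no row. Of 16 tested further regulators linked to the mesenchymal state, 9 were higher, 2 were lower and 5 did not pass, at a median log2 change of 0.45. Beside both of these lists, 32.6% of all genes tested were higher and 31.9% lower. KLF8, among the 9, entered the test through the VHL group and lends no support to this count. KLF8, a repressor of CDH1, rose from 10 and 14 counts to 25 and 151, or 3.71 ± 0.320 (SE) on the log2 scale. FOXQ1 and SOX4 rose by 2.21 and 1.35. The chromatin protein HMGA2 and SOX9 fell by 0.38 and 0.33, and the SOX9 call did not hold with DESeq2 (adjusted p = 0.0982) or without either control library or VHL replicate 1.

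Epithelial junction and surface genes were mostly higher. Of 32 tested, 21 were higher, 3 were lower and 8 did not pass, at a median log2 change of 0.77. Among all genes tested, 32.6% were higher and 31.9% lower. TJP3 and ERBB3, among the 21, entered the test through the VHL libraries alone and lend no support to this count. MAL2, a protein of apical transport, had 409 and 275 counts in the control and 484 and 2605 with VHL, a log2 fold change of 3.06 ± 0.0779 (SE, edgeR FDR = 3.16e-22). The tight junction scaffold TJP3 had 2 counts over the control libraries and 33 over those with VHL, a ratio of 30.1 (exact 95% interval 7.70 to 259). The receptor ERBB3 had 5 and 25 counts, a ratio of 9.12 (exact 95% interval 3.43 to 30.5), and its call was lost without VHL replicate 2 (edgeR FDR = 0.132). The keratins of simple epithelia were divided. KRT7 rose from 0.840 ± 0.155 to 6.96 ± 0.242 CPM (SD over 2 libraries each), or 3.03 on the log2 scale with an edgeR FDR of 1.91e-09. KRT8 and KRT19 fell by 0.56 and 0.37, and KRT18 had a log2 fold change of -0.12 (edgeR FDR = 0.103).

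Of 27 tested mesenchymal matrix and cytoskeletal genes, 9 were higher, 9 were lower and 9 did not pass, at a median log2 change of 0.03. These counts are close to the 32.6% higher and 31.9% lower of all genes. Collagen chain COL5A1 fell by 2.15 on the log2 scale, from 32.1 ± 0.552 to 7.71 ± 1.08 CPM (SD over 2 libraries each), the surface enzyme NT5E by 1.25 and the hyaluronan receptor CD44 by 1.01. The gelatinase MMP2 rose from 418 ± 7.83 to 755 ± 71.9 CPM (SD over 2 libraries each), or 0.84 on the log2 scale. TAGLN and COL5A2, both under 5 CPM, had log2 fold changes of 1.02 and 0.87, and neither call held with DESeq2 (adjusted p = 0.0917 and 0.127).

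**Figure D5:**
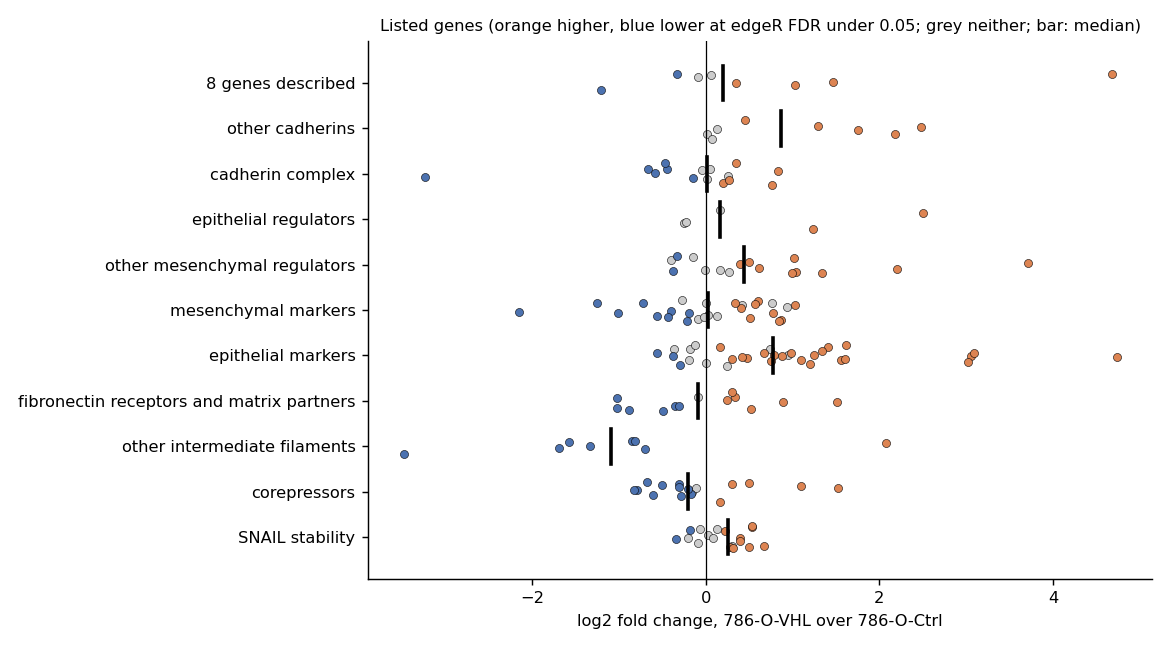
Log2 fold change of 786-O-VHL over 786-O-Ctrl (x axis) for the tested genes of each list (y axis), with orange points higher and blue points lower at an edgeR FDR under 0.05, grey points neither, and a black bar at the median. Epithelial markers and other cadherins lie mostly to the right of 0 and other intermediate filaments to the left, while mesenchymal markers fall on both sides.

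Of 17 tested repressor partners that SNAIL and ZEB proteins recruit, 10 were lower, 5 were higher and 2 did not pass, at a median log2 change of -0.20, beside 31.9% lower and 32.6% higher of all genes. By library totals alone 6 were lower. The methyltransferase EZH2, the deacetylase HDAC1 and the demethylase KDM1A fell by 0.82, 0.78 and 0.68 on the log2 scale. AJUBA, a LIM protein that binds SNAIL, rose by 1.10, the ZEB corepressor CTBP2 by 0.50 and LOXL3 by 1.52. Of 18 tested genes whose products phosphorylate, ubiquitinate or deubiquitinate SNAIL or TWIST proteins, 9 were higher, 2 were lower and 7 did not pass, with a median of 0.25. The ligase subunit FBXL5 rose by 0.67, the kinase LATS2 by 0.54 and the deubiquitinase USP3 by 0.53. USP37 and OTUB1 fell by 0.34 and 0.18 in edgeR, and neither passed with DESeq2 (adjusted p = 0.148 and 0.0873). The protein levels were not analysed here.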

How the data were processed

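The authors extracted total RNA in 2 replicates from each subline, prepared Illumina libraries, aligned reads to hg19 and deposited raw counts per gene. The submitters' processing notes name CASAVA and STAR. Not given in the sources used here are the counting tool, the strand setting and the annotation. Samples were grouped by title. The 786-O-Ctrl columns share 1 replicate number and were used as unnumbered replicates.

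The test was that of edgeR 4.0.16 (R 4.3.3), with filterByExpr (minimum count 10, 12335 genes kept, 577 removed), TMM, the quasi-likelihood F test on group alone, and Benjamini-Hochberg adjustment over all genes tested (FDR). Standard errors are those implied by F. The study used DESeq2, here 1.42.0 as an alternative beside limma-voom 3.58.1, RLE, library totals, other filters, thinning and each library left out. Replicates differed by more than sampling noise (chi-square per degree of freedom 2.27 and 2.82).

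For a repeated symbol the identifier with most counts was used. Positions and exon lengths are from a GRCh37 annotation (GENCODE, 12749 identifiers matched without their version). Genes and lists were chosen with earlier results of these data known. Named from each list were at most 3 genes per direction with the largest change past FDR 0.05 whose groups did not overlap. CTNNB1, CTNNA1, CTNND1, ITGB1, ITGAV, ITGB3, ITGA3, KRT7, KRT18, CDH6, CDH11, NEFL and the genes named as not passing or without a row were added after their values were seen.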

Additional observations from a re-analysis of the deposited data

How the results depend on the processing

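The log2 fold changes of VIM, FN1 and SNAI2 kept their direction and their call under all 12 alternatives. That of CDH1 did so under the 10 in which it was tested. Most of these kept the filter that CDH1 passed through the VHL libraries alone, so they lend its call no support. A prior count of 2 left the numbers of calls over all genes at 4017 higher and 3939 lower. Scaling by library totals alone shifted the median log2 fold change of all genes to 0.15 and the split of calls from 4017 higher and 3939 lower to 5077 and 3097, and changes under it are relative to that shift. DESeq2 called 2816 genes higher and 3150 lower, and thinning left 2780 and 2825. The number of the 8 genes that were lower was 1 with DESeq2, with library totals and after thinning, and between 1 and 2 with 1 library left out. SNAI1 was lost in each of these, and CDH2 was called without 786-O-VHL replicate 2. CDH2 reversed to 0.041 with library totals. ZEB2 lay between -0.052 and 0.099 with 1 library left out and was below 0 without the deeper 786-O-Ctrl library or 786-O-VHL replicate 2, and PDGFRB reversed to -0.056 after thinning. The difference between groups in the CDH2 over CDH1 log2 ratio was between -4.70 and -4.09 with 1 library left out.

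Among other cadherins 3 were higher with 10 counts required in every library, and 3 after thinning. Over all genes, 3678 were higher and 3606 lower with 10 counts required, and 4015 and 4020 without a filter. A list can therefore lose calls with all genes. Library totals alone called 8 genes of the cadherin complex higher, 1 further mesenchymal regulator lower (also 1 with DESeq2), 6 corepressors lower and 0 of the genes acting on SNAIL lower. Of the latter, 5 were higher with DESeq2 and 5 after thinning, and 0 and 1 were lower. With 1 library left out, calls among these genes, the mesenchymal regulators and the fibronectin receptors and partners also moved. A group then holds 1 library, and calls over all genes moved too, so no count is read from these fits. Of other intermediate filaments, 2 were higher without a filter, 0 with 10 counts in every library and 0 after thinning. No paired analysis was possible because both 786-O-Ctrl columns carry the same replicate number. The depth of 786-O-VHL replicate 1, where 3 counts are 1.02 CPM, limits CDH1 and other genes with few counts.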
